A study of Rattus norvegicus with 18 samples.

Results

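The genes described here encode the proteasome of the rat kidney: the rings of its core, the base and lid of its regulatory cap, the chaperones that assemble the base and the alternative activators. They were chosen by symbol, as genes whose symbol starts with Psma, Psmb, Psmc, Psmd or Psme followed by a digit, without the immunoproteasome subunits Psmb8 and Psmb9. Each was represented by the probe set, among those with exactly 1 gene symbol, whose log2 signal averaged highest across the 6 samples. That gave 40 of 10969 genes with such a probe set, and all 40 passed the filter on low signal. The symbols Psmc3ip and Psme3ip1 meet the rule but belong to proteins that are not subunits, which leaves 38 proteasome genes. Psmb10 is also no constitutive subunit: it encodes an interferon-inducible catalytic subunit and is described apart from the constitutive core. The catalytic subunit Psmb6 has no value here, because its probe sets carry several symbols, and Psma8 and Psmb11 had no probe set with exactly 1 symbol.

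Kidney transcript levels were measured in the Dahl salt-sensitive (S) rat and in a congenic strain, whose name in the sample titles ends in R(9)x3A, in total RNA from 3 kidney samples of each. The congenic strain has the S background with a segment of chromosome 9 from the R rat, chosen for a blood pressure quantitative trait locus. The labels give no diet, age or sex, and name no allele, treatment or transgene beyond the segment. Whether the samples of a strain came from separate animals is not stated, so the p-values below rest on a spread between samples that could be technical.

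The proteasome is the protease that degrades proteins tagged with ubiquitin in the cytosol and nucleus. Its core is a barrel of stacked rings: the outer alpha rings gate the entry, and the inner beta rings carry the catalytic sites. A cap binds the barrel at its ends. The lid of the cap removes ubiquitin, and the ATPases of the base unfold the substrate and thread it into the barrel. Proteasome genes are known to be transcribed together. The factor NRF1 (Nfe2l1) drives them through antioxidant response elements when proteasome activity is low, and NF-Y and Ets family factors bind many of their promoters in other conditions.

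Because these genes are known as a co-transcribed set, their promoters are shown first, with the 3 motifs of those factors. RefSeq promoters of GRCr8, from 250 bases before to 50 bases after the annotated start, were found for 34 of the 38 genes. Those of Psma7, Psmd6, Psmd12 and Psmd14 were not used here. The motifs, searched on both strands, were TGACNNNGC (the core of the antioxidant response element), CCAAT (the box bound by NF-Y) and CGGAAG (an Ets core). The following 4 promoters were chosen for the subunits the results return to and for the motifs they differ in: the catalytic subunits Psmb5 and Psmb7, the ATPase Psmc1, and Psmd1, the scaffold subunit whose gene is on chromosome 9. Each is written 5′ to 3′ in the direction of its gene, in lower case, with the motif matches of either strand in capitals. The Psmb5 promoter is at chr15:32047330-32047629 on the minus strand, that of Psmb7 at chr3:42827421-42827720 on the minus strand, that of Psmc1 at chr6:125122247-125122546 on the plus strand and that of Psmd1 at chr9:94157721-94158020 on the plus strand.
Psmb5: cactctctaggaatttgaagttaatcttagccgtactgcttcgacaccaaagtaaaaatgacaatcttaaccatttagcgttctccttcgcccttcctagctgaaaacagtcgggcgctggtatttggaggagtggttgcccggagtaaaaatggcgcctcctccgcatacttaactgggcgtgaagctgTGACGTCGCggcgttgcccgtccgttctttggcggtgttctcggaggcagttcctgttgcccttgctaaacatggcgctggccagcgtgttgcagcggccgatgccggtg
Psmb7: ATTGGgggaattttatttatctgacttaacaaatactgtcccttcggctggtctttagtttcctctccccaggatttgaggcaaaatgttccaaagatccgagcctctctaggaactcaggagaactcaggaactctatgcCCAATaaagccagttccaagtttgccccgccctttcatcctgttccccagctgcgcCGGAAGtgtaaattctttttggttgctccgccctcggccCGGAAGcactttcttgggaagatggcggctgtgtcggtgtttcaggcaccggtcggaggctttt
Psmc1: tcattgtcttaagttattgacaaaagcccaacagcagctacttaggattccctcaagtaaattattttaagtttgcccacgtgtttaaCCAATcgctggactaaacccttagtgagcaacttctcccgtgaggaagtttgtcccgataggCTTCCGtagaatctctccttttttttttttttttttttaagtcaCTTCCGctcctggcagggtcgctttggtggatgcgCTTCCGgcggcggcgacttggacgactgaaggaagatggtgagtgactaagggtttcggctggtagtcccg
Psmd1: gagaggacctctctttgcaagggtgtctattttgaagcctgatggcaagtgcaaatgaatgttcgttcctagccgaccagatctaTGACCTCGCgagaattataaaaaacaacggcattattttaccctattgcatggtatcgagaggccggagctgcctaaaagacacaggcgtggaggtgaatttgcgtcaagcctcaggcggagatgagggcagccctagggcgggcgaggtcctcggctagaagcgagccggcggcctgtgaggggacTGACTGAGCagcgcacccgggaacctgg

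The Psmb5 window held an antioxidant response element core from 60 to 52 bases before the start and neither of the other motifs. The Psmb7 window, of the same ring, held none of these cores but CCAAT boxes from 250 to 246 bases (minus strand) and from 109 to 105 bases before the start, and Ets cores starting 53 and 14 bases before it. Psmc1 had 3 Ets cores, all read on the minus strand, the nearest starting 21 bases before the start. Psmd1 had 2 antioxidant response element cores, at 165 to 157 bases before the start and at 22 to 30 bases after it.

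Across the 34 promoters the Ets core was the most frequent of the 3 motifs. It was in 19 promoters (55.9%), against 30.4% of the promoters of the 7306 tested genes found in the table and 16.6% of all 33469 promoters of that length. The CCAAT box was in 17 (50.0%), against 37.8% and 37.5%. The antioxidant response element core was in 7 (20.6%), against 15.2% and 12.1%, and those were Psma3, Psmb2, Psmb5, Psmd1, Psmd3, Psmd9 and Psme4. An Ets core and a CCAAT box stood together in 11 promoters, and an antioxidant response element core with an Ets core in 1. No promoter held all 3, and 6 held none. By position in the complex, the Ets core was in 3 of 6 alpha ring, 4 of 6 beta ring, 6 of 9 base and 4 of 5 lid promoters, and in 0 of 3 chaperone promoters. The CCAAT box was in 5 of 6 alpha ring promoters and in 3 of 9 base promoters. These matches describe letters in a window, with no measurement of binding.

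**Figure D1:**
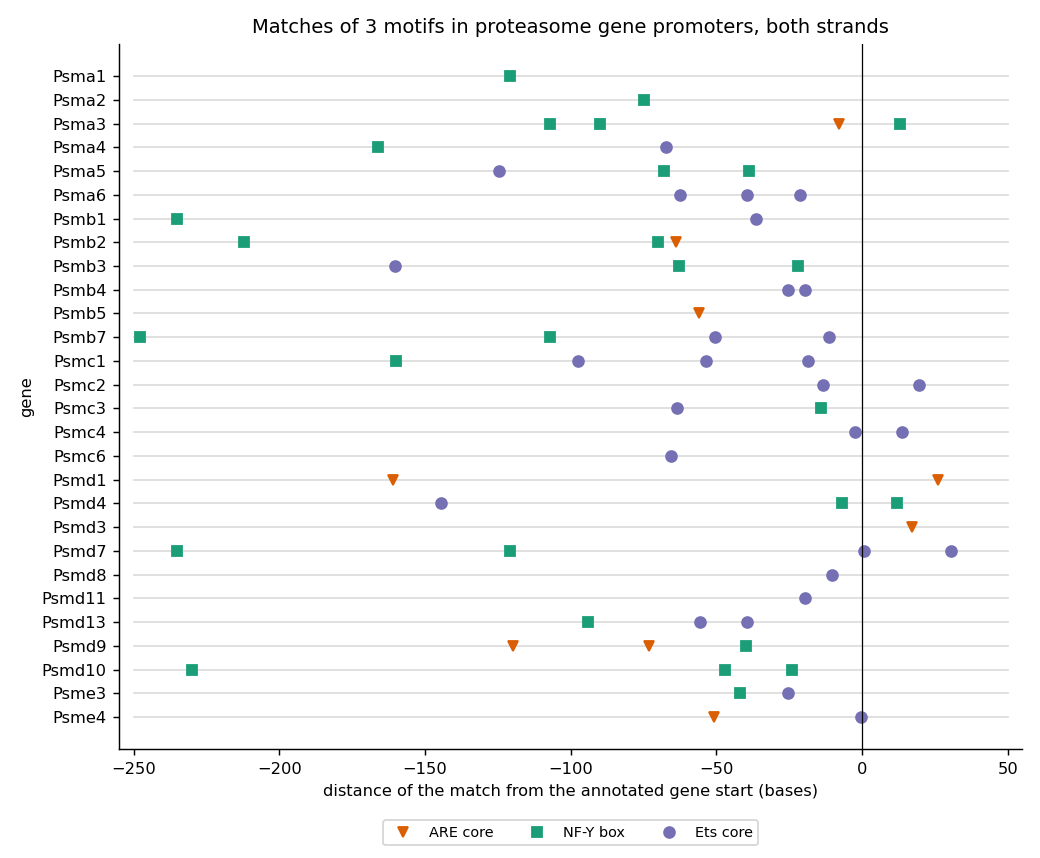
Position of each motif match in the promoters of the proteasome genes that held at least 1 match, in bases from the annotated start (horizontal axis); each row is a gene, ordered by subcomplex. Ets cores (circles) are in 19 genes, boxes bound by NF-Y (squares) in 17 and antioxidant response element cores (ARE, triangles) in 7.

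Each sample was hybridised to 3 array types, A, B and C, which give 1 signal per probe set, in array units scaled alike on every array. Signals are not compared between genes, because probe sets differ in their response. In whole tissue, fewer cells of a type and less RNA per cell cannot be told apart. Probe sets were tested where their mean log2 signal reached a filter level, which was a signal of 21.2 on type A, 39.3 on type B and 37.7 on type C. A single signal below its level was not shown to be above background. The kidney label was checked against kidney markers, of which 11 were tested: Umod, for example, had signals of 5763.4 to 7455.6. Slc12a1 was dim, with 11.4 to 123.9, and congenic sample 2 was below the filter level. The control probe sets for the 3′ and 5′ ends of GAPDH and beta-actin set the samples numbered 1 apart in both strains. The 3′ over 5′ log2 ratio of beta-actin was 0.49 in sample 1 of the Dahl S strain and 0.50 in sample 1 of the congenic strain, and 1.07 to 1.35 in the other 4 samples. Between the strains the beta-actin ratio differed by 0.09 (two-sided exact permutation p = 0.7) and that of GAPDH by -0.12 (p = 0.5), where 0.1 is the smallest p that 3 against 3 samples allow.

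No strain difference was detected in any proteasome transcript. For most of these genes the probe set that represents the gene bounded the difference to less than 2-fold. The median log2 difference, congenic minus Dahl S, over the 38 genes was -0.073, beside -0.0066 over all 8158 genes tested, and the single differences ran from -0.45 in the lid subunit Psmd12 to 0.29 in the activator Psme3. In limma, 0 of the 38 genes passed an adjusted p of 0.05 (smallest adjusted p = 0.9997), as did 0 of all 8158 genes (0%). At an unadjusted p under 0.05 there were again 0 of the 38, beside 192 of the 8158 (2.35%). Leaving out 1 sample at a time moved the median of the 38 to between -0.14 (without congenic sample 3) and -0.021 (without congenic sample 1), and it was -0.031 without Dahl S sample 2. The signals of the strains did not overlap in 1 of the 38, Psmd14, beside 622 of the 8158 (7.62%).

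The data bounded these differences more closely than those of the median gene. The 95% confidence interval from limma lay within a 2-fold change in either direction for 35 of the 38 proteasome genes (92.1%), beside 65.9% of all genes tested. It lay within 1.5-fold for 19 of the 38. The exceptions at 2-fold were Psma3, Psmb10 and Psmd14. These counts rest on 1 probe set per gene. Some other tested probe sets had intervals past 2-fold, such as 1 of Psme2 (-2.38 to 0.13) and 1 of Psmd11 (-0.10 to 1.72). The spread within a strain was smaller too, with a median SD of 0.21 log2 units beside 0.31 for all genes, and so was the median size of the difference, 0.10 beside 0.17. Close bounds were not particular to the proteasome. In the pathway lists described below, the share within 2-fold was 93.3% (assembly factors and regulators), 88.2% (ubiquitin and its enzymes) and 100% (p97 and shuttles). It was 62.5% of the NRF2 targets and 42.9% of the immunoproteasome list. As a guide to precision and not to level, the median signal was 324.9 in the 38 genes and 169.0 over all genes. The part of signal in the spread was not tested.

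By sign, 25 of the 38 genes (65.8%) were lower in the congenic strain, beside 51.1% of all genes tested. The share came to 60.5% with each array scaled to its median and to 71.1% after quantile normalization. With 1 sample left out the share ran from 55.3%, without Dahl S sample 2 or congenic sample 1, to 73.7% without congenic sample 3. The median deviation of the 38 genes from the mean of the 6 samples was -0.03, 0.08 and -0.03 in Dahl S samples 1, 2 and 3, and -0.10, -0.03 and 0.03 in congenic samples 1, 2 and 3. The strains overlapped in this measure: congenic sample 3 was above Dahl S samples 1 and 3.

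**Figure D2:**
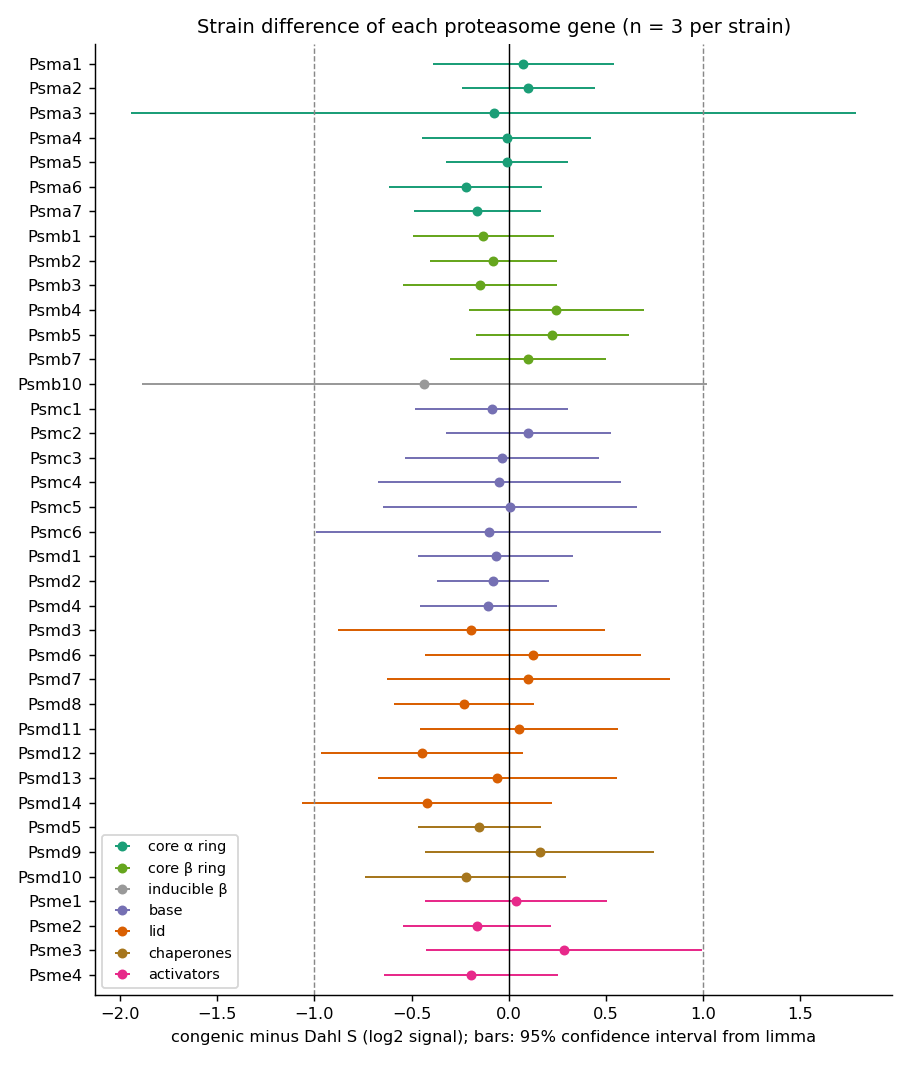
Log2 difference, congenic minus Dahl S, of each of the 38 proteasome genes (points), with 95% confidence intervals from limma (bars, n = 3 samples per strain); colours mark the subcomplex and dashed lines a 2-fold change. Every interval includes 0, and those of Psma3, Psmb10 and Psmd14 pass a dashed line.

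In the alpha ring, the gate of the core, 7 genes were measured, with 2 above and 5 below 0 and a median log2 difference of -0.011. The member with the smallest p was Psma6, with signals of 552.0, 473.9 and 463.0 in Dahl S samples 1 to 3 and 512.9, 392.4 and 379.2 in congenic samples 1 to 3. Sample 1 was the highest in each strain, and the strains overlapped. The log2 difference was -0.22 (SE 0.17, 95% interval -0.62 to 0.17, unadjusted p = 0.231 in limma). The other tested probe sets of Psma6 gave 0.13 and 0.42, the opposite sign, and in the second of these the strains did not overlap.

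Psma5 was the most tightly bounded member of the ring. Its signals were 804.5, 958.3 and 864.3 in Dahl S and 808.7, 886.7 and 911.4 in the congenic samples, a log2 difference of -0.0093 (SE 0.14, 95% interval -0.32 to 0.30). All 3 congenic values lay inside the range of the Dahl S values. Psma7, whose signals ran from 1102.1 to 1222.2 in Dahl S and from 931.9 to 1173.2 in congenic samples, had a difference of -0.16 (95% interval -0.49 to 0.17). Its other tested probe sets ranged from -0.09 to 0.19, and in that at 0.12 the strains did not overlap. The differences of Psma1, Psma2 and Psma4 were 0.08, 0.10 and -0.01.

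Psma3 differed from the rest of the ring in its spread within the strains. Its signals were 93.5, 44.6 and 18.3 in Dahl S and 86.1, 46.3 and 16.3 in the congenic samples. Samples with the same number had nearly the same signal in both strains, and the values of both samples numbered 3 were below the filter level of its array. The strain difference was -0.08 with a wide error (SE 0.83, 95% interval -1.94 to 1.79). Sample 1 exceeded the mean of samples 2 and 3 by 1.71 log2 units in Dahl S and by 1.65 in the congenic strain.

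In the beta ring, 3 of 6 genes were higher and 3 lower, with a median of 0.01. Psmb5, the subunit with chymotrypsin-like activity, had the smallest p of the ring. Its signals were 751.1, 1014.2 and 1070.0 in Dahl S and 1023.2, 1229.5 and 1033.5 in the congenic samples. Dahl S sample 1 was the lowest and congenic sample 2 the highest, and the other 4 lay between 1014.2 and 1070.0. The difference was 0.22 (SE 0.17, 95% interval -0.17 to 0.62, unadjusted p = 0.227 in limma), and the other 3 tested probe sets of the gene ranged from -0.10 to 0.24.

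Psmb7, the subunit with trypsin-like activity, had signals of 473.7, 648.6 and 499.9 in Dahl S and 629.7, 612.4 and 490.1 in congenic samples. Each strain held lower and higher values, and the ranges overlapped almost whole. The difference was 0.10 (SE 0.18, 95% interval -0.30 to 0.50, unadjusted p = 0.588 in limma). Among the structural members of the ring, Psmb4 had the highest difference, 0.24 (SE 0.20), with congenic sample 2 at 1202.8 and the other 5 samples between 711.2 and 828.3. Its other tested probe sets gave -0.05 and 0.03. Psmb1, Psmb2 and Psmb3 had differences of -0.13, -0.08 and -0.15, and for Psmb2 the 6 signals spanned only 368.2 to 437.2.

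Psmb10 encodes the interferon-inducible counterpart of Psmb7 and had the widest spread of the measured genes after Psma3. Its signals were 89.3, 164.4 and 41.6 in Dahl S and 29.9, 68.3 and 121.2 in congenic samples, and congenic sample 1 was below the filter level. The difference was -0.43, with a 95% interval from -1.89 to 1.02 (SE 0.65, unadjusted p = 0.519 in limma). Its sign rested on single samples: leaving out Dahl S sample 2 gave 0.04 and leaving out congenic sample 1 gave 0.10, whereas without Dahl S sample 3 it was -0.95, and -0.91 without congenic sample 3.

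**Figure D3:**
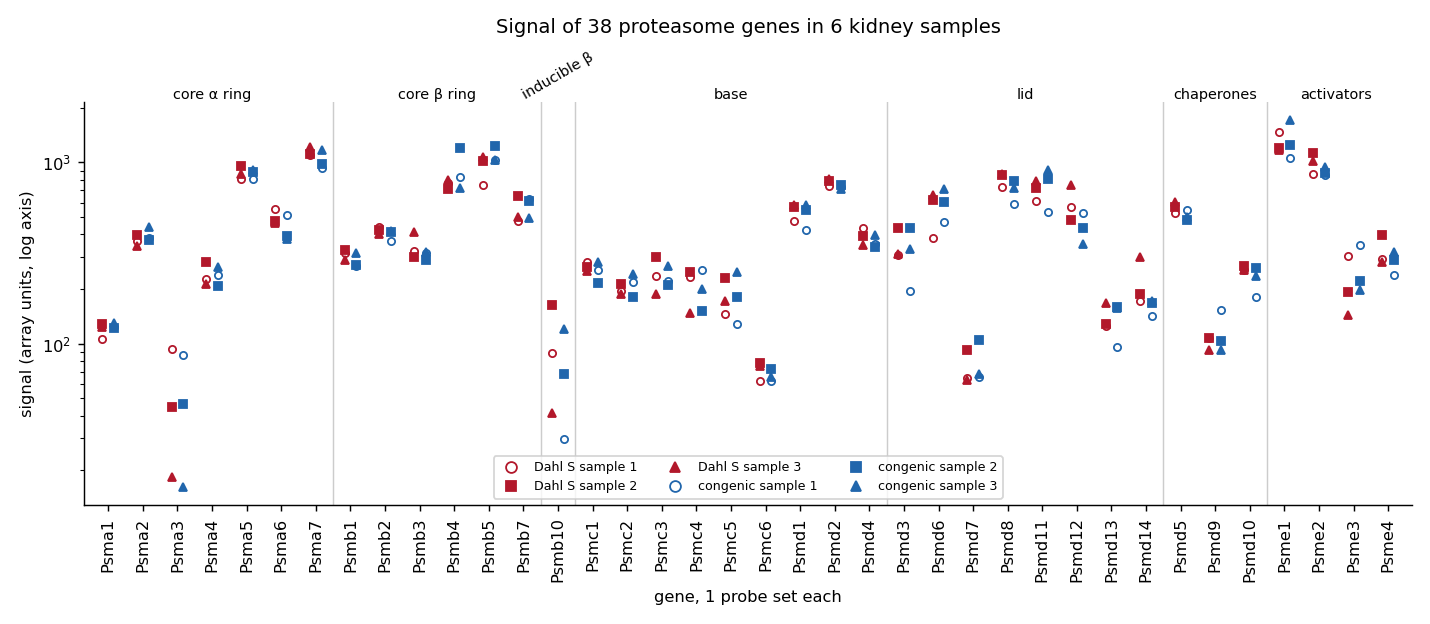
Signal of each of the 38 proteasome genes in every sample (array units, log axis), grouped by subcomplex; red marks Dahl S and blue congenic samples, and symbols give the sample number. The strains overlap in all genes but Psmd14, and Psma3 and Psmb10 have the widest spread.

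The base had the narrowest range of differences of the subcomplexes with more than 1 measured gene. Of its 9 genes, 2 were higher and 7 lower, the median was -0.07 and the differences stayed between -0.10 and 0.10, with 95% intervals within 2-fold for all 9. Its median was -0.14 without congenic sample 3, 0.0002 without congenic sample 2 and -0.03 without Dahl S sample 2. The 6 ATPases, which unfold substrates, had a median of -0.04, and the other 3 subunits one of -0.08. Psmd4, a receptor for ubiquitin chains, had the smallest p of the base. Its signals were 434.0, 392.7 and 351.9 in Dahl S and 354.6, 341.2 and 399.1 in congenic samples, so the strains overlapped. The difference was -0.10 (SE 0.16, 95% interval -0.46 to 0.25, unadjusted p = 0.519 in limma), and its other 3 tested probe sets gave the opposite sign, 0.13 to 0.30.

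Psmd1, a scaffold of the base, was the proteasome gene on chromosome 9, the chromosome that carries the R segment. The sources used here do not say whether the segment includes it. Its signals were 473.6, 565.6 and 581.9 in Dahl S and 422.7, 548.4 and 583.9 in congenic samples. In each strain sample 1 was the lowest, and the values of like-numbered samples lay close together. The difference was -0.07 (SE 0.17, 95% interval -0.47 to 0.33, unadjusted p = 0.707 in limma). The other tested probe sets gave -0.51 (95% interval -1.295 to 0.28) and -0.13. Psmd2, the scaffold that docks ubiquitin shuttles, had signals of 736.5 to 805.7 in Dahl S and 716.5 to 751.8 in congenic samples, with a difference of -0.08 (SE 0.13, 95% interval -0.37 to 0.21).

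Among the ATPases, Psmc2 had the highest difference, 0.10 (SE 0.19), and Psmc6 the lowest, -0.10 (SE 0.40). Psmc1, Psmc3 and Psmc4 had differences of -0.09, -0.04 and -0.05. Psmc5 had the widest spread of the 6 within the strains: its signals were 145.8, 228.8 and 172.6 in Dahl S and 129.1, 181.7 and 248.9 in congenic samples. Sample 1 was again the lowest in each strain, and the difference between strain means was 0.0067 (SE 0.29).

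The lid had the widest range of differences and the widest spread within strains of the subcomplexes with more than 1 measured gene. Of its 8 genes, 3 were higher and 5 lower, with a median of -0.13 and a range from -0.45 to 0.13. The median within-strain SD was 0.33 log2 units, beside 0.14 in the alpha ring, 0.20 in the beta ring, 0.17 in the base, 0.19 in the chaperones and 0.26 in the activators. The median size of the difference was 0.16 in the lid and 0.18 in the activators. No test of a difference between subcomplexes was made. The sign of the lid's median rested on congenic sample 1: without that sample the median was 0.16, and without both samples numbered 1 it was 0.04.

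Psmd12, a structural subunit of the lid, had the smallest p of all 38 genes. Its signals were 570.4, 478.7 and 750.8 in Dahl S and 524.8, 433.4 and 355.3 in congenic samples. Dahl S sample 3 was the highest and congenic sample 3 the lowest, and the ranges overlapped. The geometric mean of the congenic samples was 0.733 of that of Dahl S (log2 difference -0.45, SE 0.23, 95% interval -0.97 to 0.07, unadjusted p = 0.0838 and, in limma, adjusted p = 0.9997). Leaving out Dahl S sample 2 gave -0.60 and an unadjusted p of 0.0426, and leaving out congenic sample 1 gave -0.59 and 0.0397. Leaving out Dahl S sample 3 gave -0.27, and the other tested probe set of the gene gave -0.19 (SE 0.28).

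Psmd14 encodes the deubiquitinase of the lid, which cuts ubiquitin off the substrate. Its signals were 172.6, 187.7 and 302.3 in Dahl S and 141.9, 166.7 and 172.3 in congenic samples. Every congenic value was below every Dahl S value, but the nearest ones were 172.3 and 172.6. Dahl S sample 3 stood well above the other 5. The log2 difference was -0.42 (SE 0.29, 95% interval -1.07 to 0.22, unadjusted p = 0.174 in limma), and -0.17 without Dahl S sample 3. That sample also had the highest red blood cell signal, a sum of 52231.3 over 6 globin and other red cell markers, beside 10112.7 to 19132.2 in the other 5 samples. The part of red cell RNA in the high Psmd12 and Psmd14 values of Dahl S sample 3 was not tested.

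Psmd8, a structural subunit, had signals of 732.2, 854.3 and 856.9 in Dahl S and 588.7, 785.0 and 717.6 in congenic samples. Congenic sample 2 was above Dahl S sample 1, and sample 1 was the lowest of each strain. The difference was -0.23 (SE 0.16, 95% interval -0.59 to 0.13, unadjusted p = 0.179 in limma). Psmd3 showed the weight of a single sample: congenic sample 1 had 195.1, and the other 5 samples had 310.0 to 434.7. Its difference was -0.19 (SE 0.31) with that sample and 0.13 without it. Psmd6, Psmd7, Psmd11 and Psmd13 had differences of 0.13, 0.10, 0.05 and -0.06, and the other tested probe sets of Psmd11 ranged from -0.42 to 0.81.

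The samples numbered 1 were low in the lid in both strains. Sample 1 was below the mean of samples 2 and 3 of its own strain, in each strain, for 7 of the 8 lid genes (87.5%), beside 35.2% of all genes tested and 20 of the 38 proteasome genes (52.6%). The exception was Psmd12. In the median over the lid genes, sample 1 minus the mean of samples 2 and 3 was -0.24 log2 units in Dahl S and -0.43 in the congenic strain, beside -0.018 and -0.031 over all genes. Psmd6 had 380.5 in Dahl S sample 1 and 617.1 and 662.7 in samples 2 and 3, and 468.7 in congenic sample 1 and 607.9 and 711.8 in samples 2 and 3. In the core, sample 1 was lower in both strains in 1 of 6 beta ring genes and in 4 of 7 alpha ring genes. Elsewhere it was lower in both in 5 of 9 base genes, 1 of 3 chaperones and 2 of 4 activators. The low lid values stood in the same samples as the low 3′ over 5′ ratios of beta-actin, and the part of these in the lid values was not tested.

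**Figure D4:**
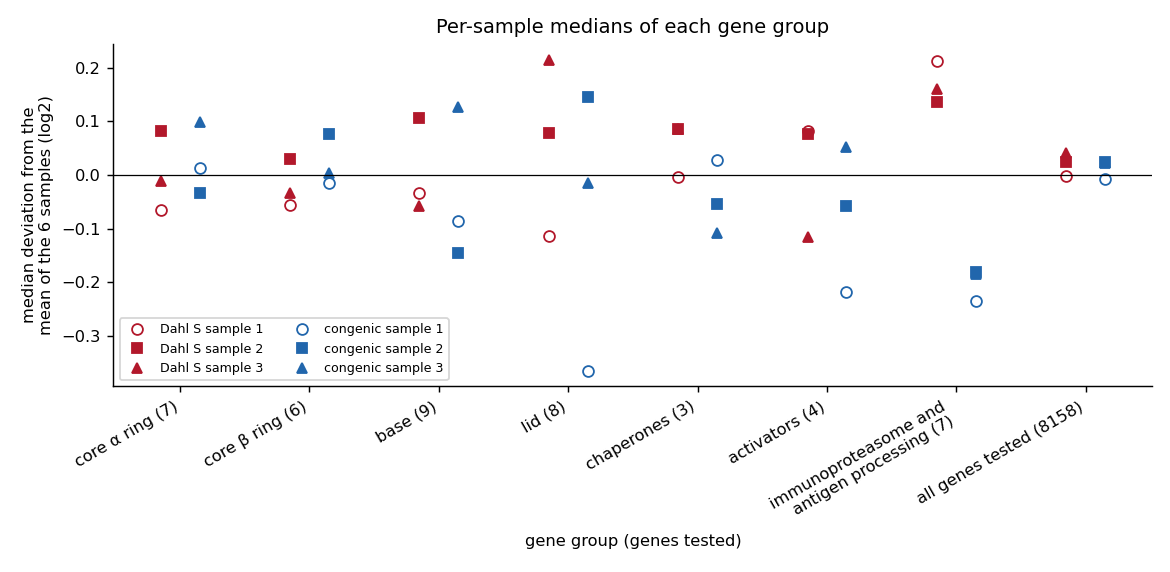
Median over each gene group of the deviation of a sample from the mean of the 6 samples (log2 units), for the subcomplexes, the immunoproteasome list and all genes tested; red marks Dahl S and blue congenic samples, and open circles mark the samples numbered 1. Congenic sample 1 lies lowest in the lid, at -0.37, and the strains overlap in every subcomplex but separate in the immunoproteasome list.

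The 3 chaperones that help assemble the base had differences of -0.15 (Psmd5), 0.16 (Psmd9) and -0.22 (Psmd10), with a median of -0.15. Psmd5 had the smallest p of these. Its signals were 524.1, 568.1 and 603.5 in Dahl S and 546.1, 483.2 and 496.6 in congenic samples. Congenic sample 1 was above Dahl S sample 1, so the strains overlapped, and the difference had an SE of 0.14 (95% interval -0.47 to 0.17, unadjusted p = 0.305 in limma). Psmd10, also known as gankyrin, had 181.3 in congenic sample 1 and 234.8 to 269.2 in the other 5 samples. Its other tested probe sets were lower in the congenic strain too, at -0.40 and -0.29, and in the first of these the strains did not overlap. Psmd9 had 154.2 in congenic sample 1 and 92.2 to 107.7 in the other 5 samples, and its difference turned to -0.06 without that sample. The mean with its second probe set, which was too dim to be tested, was -0.38.

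The activators replace the cap at the ends of the core. Of the 4 genes, 2 had a difference above 0 and 2 below, with a median of -0.06 that became 0.08 without both samples numbered 1 and 0.04 with arrays scaled to their medians. Psme1 and Psme2 encode the interferon-inducible activator PA28. Psme1 had signals of 1478.6, 1201.9 and 1162.7 in Dahl S and 1053.4, 1242.4 and 1709.3 in congenic samples, and the congenic values spanned those of Dahl S. The difference was 0.04 (SE 0.21, 95% interval -0.43 to 0.51, unadjusted p = 0.859 in limma), and the other tested probe sets of Psme1 ranged from -0.08 to 0.27.

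Psme2, its partner subunit, had signals of 862.3, 1124.0 and 1018.7 in Dahl S and 852.1, 871.8 and 945.9 in congenic samples. The 2 highest values were both Dahl S, and the third Dahl S sample lay among the congenic ones. The difference was -0.16 (SE 0.17, 95% interval -0.54 to 0.22, unadjusted p = 0.357 in limma). Its other 3 tested probe sets were all below 0, from -1.12 to -0.15. The lowest of these came from a probe set with congenic sample 3 below the filter level (SE 0.56, unadjusted p = 0.0738 in limma).

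Psme3 encodes the nuclear activator PA28 gamma. Its signals were 303.8, 191.8 and 144.5 in Dahl S and 349.6, 220.6 and 197.6 in congenic samples. Sample 1 was by far the highest in each strain, above the mean of samples 2 and 3 by 0.87 log2 units in Dahl S and 0.74 in the congenic strain. The difference between strains was 0.29 (SE 0.31, 95% interval -0.43 to 1.00, unadjusted p = 0.386 in limma), and the other tested probe set gave 0.05. It was 0.57 without Dahl S sample 1, 0.45 without congenic sample 3, and 0.04 when either Dahl S sample 3 or congenic sample 1 was left out. Psme4, which encodes the activator PA200, had 293.0, 397.5 and 283.6 in Dahl S and 239.0, 287.7 and 320.9 in congenic samples, with overlap and a difference of -0.19 (SE 0.20, 95% interval -0.64 to 0.25, unadjusted p = 0.349 in limma). Its other tested probe set gave 0.09, with Dahl S sample 3 and congenic sample 2 below the filter level.

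Of the other symbols that the rule picked, Psmc3ip, a recombination factor, had a difference of -0.05 (SE 0.28). Psme3ip1, which encodes a protein that binds the Psme3 activator, had 0.48 (SE 0.32, 95% interval -0.23 to 1.20).

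How far a gene's value depended on its probe set could be seen in the 19 proteasome genes with more than 1 tested probe set. All tested probe sets had the same sign in 8 of the 19. The strains did not overlap in 5 of 76 tested probe sets of all members, beside 1113 of 15721 probe sets (7.08%). Apart from that of Psmd14, these were second probe sets of Psma5, Psma6, Psma7 and Psmd10. One of Psma5 had 138.2, 131.9 and 146.8 in Dahl S and 157.0, 219.5 and 159.6 in congenic samples, a difference of 0.35 (SE 0.21), and another of the same gene had -0.35 (SE 0.24). None of the probe sets of the members passed an adjusted p of 0.05 in limma.

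**Figure D5:**
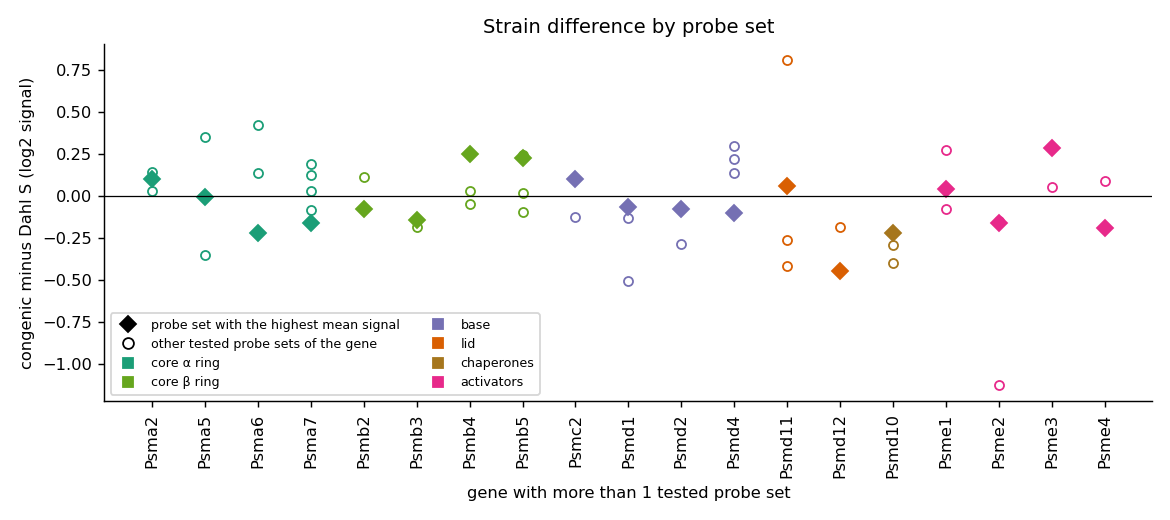
Log2 difference, congenic minus Dahl S, for each tested probe set of the 19 proteasome genes with more than 1; diamonds mark the probe set with the highest mean signal, which represents the gene, and open circles the others. In 8 of the 19 genes all points lie on 1 side of 0, and the lowest point is a probe set of Psme2 at -1.12.

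Promoter motifs did not sort the strain differences by more than a few hundredths of a log2 unit. The median difference was -0.05 in the 19 genes with an Ets core and -0.08 in the 15 without. It was -0.04 with and -0.08 without a CCAAT box, and -0.08 with and -0.05 without an antioxidant response element core. These medians are descriptions with no test.

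The genes around the proteasome in its pathway were taken from lists by role. Of 15 tested assembly factors, ubiquitin receptors and regulators, 4 were higher and 11 lower, with a median of -0.13, and 0 had an unadjusted p under 0.05. Those with the smallest p were Ddi2, the protease that activates NRF1, at -0.29 (SE 0.17, unadjusted p = 0.123 in limma), and the proteasome-bound ubiquitin ligase Ube3c at 0.37 (SE 0.23, unadjusted p = 0.133 in limma). Nfe2l1, which encodes NRF1, had 390.3, 742.8 and 886.4 in Dahl S and 404.6, 696.3 and 828.7 in congenic samples. Its sample 1 was the lowest of each strain, and the strain difference was -0.05 (SE 0.35). The assembly factor Pomp had -0.22 (SE 0.31) and the ubiquitin receptor Adrm1 -0.22 (SE 0.22).

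Upstream of the proteasome, 17 tested genes of ubiquitin, its activating enzymes and its conjugating enzymes had a median of -0.022, with 8 higher and 9 lower. Ube2b, a conjugating enzyme, had the smallest p. Its signals were 245.1, 269.2 and 229.6 in Dahl S and 286.4, 301.5 and 340.5 in congenic samples, with no overlap and a difference of 0.32 (SE 0.16, unadjusted p = 0.0845 in limma). Cdc34 had -0.26 (SE 0.16, unadjusted p = 0.151 in limma), but its other tested probe sets gave the opposite sign, from 0.11 to 0.25. The 12 tested genes of the p97 segregase and the ubiquitin shuttles had a median of -0.024, with 4 higher and 8 lower. Derl1 and Ufd1 had the smallest p in that list, with differences of 0.28 (unadjusted p = 0.168) and 0.19 (unadjusted p = 0.369) in limma. The other tested probe set of Derl1 gave -0.01. Of 8 tested targets of the oxidant response factor NRF2, 5 were higher and 3 lower. The median was 0.16 and the mean -0.04, with Gsta3 at 0.30 (unadjusted p = 0.125) and Gpx2 at -0.64 (unadjusted p = 0.133) in limma. No gene of these lists had an unadjusted p under 0.05.

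The immunoproteasome and antigen processing list covers the inducible subunits, which replace catalytic subunits of the core under interferon. Of 7 tested genes, 1 had a difference above 0 and 6 below, with a median of -0.52, and 3 had an unadjusted p under 0.05 in limma, beside 2.35% of all genes. The median was the value of Irf7 (SE 0.54), for which congenic sample 2 was below the filter level. Leaving out Dahl S sample 1 brought that median to -0.19, leaving out congenic sample 2 brought it to -0.25, and 0 of the 7 passed the adjusted threshold. Psmb9, an inducible catalytic subunit, had 212.4, 186.2 and 163.0 in Dahl S and 92.3, 117.7 and 109.9 in congenic samples, without overlap (-0.81, SE 0.28, unadjusted p = 0.0162 in limma). Its other tested probe sets gave smaller differences, from -0.55 to -0.30. Psmb8, which takes the place of Psmb5, had 159.6, 132.4 and 66.7 in Dahl S and 103.6, 35.6 and 26.9 in congenic samples (-1.28, SE 0.55, unadjusted p = 0.0475 in limma), but its other tested probe set gave 0.43. Irf1, an interferon-induced transcription factor, had -0.56 (SE 0.24, unadjusted p = 0.0434 in limma). B2m, the light chain of MHC class I, went the other way without overlap, with 2502.4 to 3025.7 in Dahl S and 3188.0 to 3573.7 in congenic samples (0.27, SE 0.16), though its other tested probe sets ranged from -0.12 to 0.16. The peptide transporter genes Tap1 and Tap2 had -0.09 and -0.14, and the other tested probe set of Tap1 gave -0.53. The difference between this list and the constitutive subunits was not tested.

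Of 11 tested leukocyte markers, 9 had a difference below 0, with a median of -0.38, beside 51.1% of all genes below 0. In limma 0 of the 11 passed the adjusted threshold, and 1 (Coro1a) had an unadjusted p under 0.05, beside 2.35% of all genes. Their summed signal was 5178.7 to 6648.2 in Dahl S and 4702.9 to 4951.5 in congenic samples, and the mean of Ptprc, the defining marker of leukocytes, did not reach the filter level. Of 7 injury markers, 6 had a difference below 0, with a median of -0.44 and a summed signal of 4341.3 to 6352.4 in Dahl S and 2459.2 to 3218.4 in congenic samples. Such sums give most weight to the brightest probe sets, that of Cd74 among the leukocyte markers and those of Spp1 and Clu among the injury markers. In limma 0 of the 7 passed the adjusted threshold, and 3 had an unadjusted p under 0.05, beside 2.35% of all genes. These 3 were without overlap, beside 7.62% of all genes. They were Clu (-1.09, SE 0.19, unadjusted p = 0.000366), Spp1 (-1.04, SE 0.21, unadjusted p = 0.00113) and Lcn2 (-1.60, SE 0.49, unadjusted p = 0.0114). For Lcn2, congenic sample 2 had 13.2, under the 21.2 set for array type A. Kidney markers had 10 of 11 above 0 (median 0.10), and red blood cell markers 5 of 6 below 0 (median -0.44). The kidney marker below 0 was Slc12a1 (-0.48, SE 0.83). Only Dahl S sample 3 was high in summed red cell signal, at 52231.3. Dahl S samples 1 and 2 had 12584.8 and 14905.3, within the congenic range of 10112.7 to 19132.2. The part of these cells in the values of the inducible subunits was not tested. Beside them, the constitutive core had a median of -0.011 over its 13 genes, and core, base and lid together one of -0.06 over 30.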

How the data were processed

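Total kidney RNA of 6 samples, 3 per strain, had been hybridised to 3 array types each, 18 arrays in all. Each probe set had 1 deposited intensity, not logged by the authors, and with 2% trimmed from both ends these averaged 150.09 to 150.24 on every array. No source used here names their software. Median signals per array were 34.8 to 78.5, and the number of arrays limits the precision.

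Intensities were floored at the 10th percentile of their array type (3.1 on A, 6.8 on B, 4.83 on C) and logged to base 2. Without the 59 controls of each type, 15721 probe sets whose mean reached the 40th percentile of the type were tested. Gene symbols came from the GEO platform annotation; all 40 members matched a gene of the GRCr8 table, which gave the chromosomes. Strain differences (congenic minus Dahl S) were fitted by limma (version 3.58.1, R version 4.3.3) per array type with lmFit and a trended eBayes. P-values were adjusted by Benjamini-Hochberg across every tested probe set, at 0.05. The fit was tested on simulated data. Exact permutation served for the control ratios, and matplotlib 3.10.9 (Python 3.11.15) for figures.

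Values in every sample are given for genes without overlap, the catalytic subunits, the activators and the member of each subcomplex with the smallest p; Psma3, Psma5, Psmb10, Psmc5, Psmd1, Psmd6, Psmd8, Nfe2l1 and a second probe set of Psma5 were added after their values were seen. From other lists, genes with an unadjusted p under 0.05 or otherwise the 2 with the smallest p were named. This was not done for the kidney and red blood cell markers. Nfe2l1, Pomp, Adrm1, B2m, Irf7, Tap1, Tap2, Coro1a and Slc12a1 were added. Alternatives changed the floor, the filter, the normalization, the variance model, the replicate block, the samples, the probe sets of a gene and the threshold. The members and lists were chosen with earlier results of these data known.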

Additional observations from a re-analysis of the deposited data

How the results depend on the processing

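Of the 20 alternatives, 19 had a test, and in these 0 of the proteasome genes passed the adjusted threshold in limma, with a smallest adjusted p between 0.9231 and 1.0. The mean over a gene's probe sets has no test, so it gives no count. The count at an unadjusted p under 0.05 was 0 to 1 when a sample was left out (Psmd12, without Dahl S sample 2 or congenic sample 1) and 0 in the other tested alternatives. Of 247 medians recomputed, 225 moved by less than the spread between samples and 22 by more. With a sample left out, the median ran from -0.14 to -0.021 over the 38 genes, from -0.14 to 0.0002 in the base, from -0.096 to 0.058 in the alpha ring, from -0.032 to 0.063 in the beta ring, from -0.25 to 0.16 in the lid and from -0.21 to -0.071 in the chaperones. Without both samples numbered 1 it was -0.086 in the chaperones and 0.079 in the activators, and averaging all probe sets per gene gave -0.31 in the chaperones. Median scaling moved the median of all genes from -0.0066 to 0.02 and that of the alpha ring to 0.015. The cause of these shifts was not tested. Of the 38 genes, 15 kept the sign of their difference in every alternative and 23 did not.

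With the sample number as a replicate block, 0 genes passed and the smallest unadjusted p was 0.0534 (Psmd8), while 4.95% of all genes were under 0.05 instead of 2.35%. Deviations of same-numbered samples correlated at 0.45, 0.077 and 0.182 over probe sets. Dahl S sample 2 correlated best with congenic sample 3 (0.147), so the numbers were not taken to pair all samples. The samples numbered 1 had the highest correlation, 0.45. Their correlations with samples 2 and 3 of the other strain were -0.20 to -0.30. Those negative values add nothing further, because the deviations within a strain sum to 0. With a term for the samples numbered 1, the smallest p of the 38 genes in limma was 0.0636 unadjusted (Psmd8) and 0.9791 adjusted. In that fit 4.29% of all genes had an unadjusted p under 0.05. The intervals of Psma3 and Psmb10, which had signals below the filter level in some samples, were the widest of the 38. The part of low signal in this was not tested. With 3 samples a strain, smaller differences than the intervals allow could not be seen.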
